A study of Mus musculus with 56 samples.

Results

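Of 7605 T cell barcodes from mouse liver tumours, 344 carried 2 different productive T cell receptor beta chains. They were found in the 15 T cell receptor (TCR) libraries of the series as barcodes called cells with at least 2 productive, high-confidence TRB contigs that differ in the nucleotides of their CDR3, the part of the chain that is joined anew in each T cell. No called barcode held more than 2. The other 7261 T cell barcodes had 1 such chain and are called one-beta barcodes here, and the 344 are called two-beta barcodes. A contig is a receptor transcript assembled from the reads of 1 barcode, and its UMI count is the number of tagged molecules behind it.

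A T cell receptor pairs a beta chain, made from V, D and J segments, with an alpha chain (TRA), made from V and J segments. In developing T cells a productive beta rearrangement halts rearrangement of the other beta allele, a rule called allelic exclusion, so most mature T cells use a single beta chain. The alpha locus follows this rule less strictly, and cells with a second productive alpha chain are well known. A droplet that catches a pair of T cells also yields a pair of beta chains, and so does a T cell in which both beta alleles were productively joined. The first kind would hold the alpha chains of both cells, and the second would pass both beta chains to every daughter cell.

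All tumours carried MYC and a luciferase construct, labelled luc, or lucOS where luciferase is joined to model T cell antigens. The second driver was NICD, the active intracellular part of NOTCH1, or sgp53, a guide RNA that targets p53, a tumour suppressor. Females carried each of the 4 combinations of construct and driver, with 3 animals per combination, and 2 males carried lucOS with NICD, which makes 14 animals. Female lucOS sgp53 replicates 3 and 4 are a pair of tumours of 1 animal and were averaged. The labels give no age. Tumour nodules were chosen by eye, and CD45 positive and negative cells were mixed again in equal numbers by hand, so T cell numbers do not measure infiltration. The animal numbers of NICD females form a block with those of sgp53 females before and after it, and the males have later numbers than all females. Driver and sex can therefore not be told apart from the block of animal numbers.

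Between 49 and 1282 T cells were recovered per library, and the beta chain of one-beta barcodes had a median of 6 UMIs in the shallowest and 14 in the deepest library. The contigs fit a T cell label: a constant gene was assigned to the stronger beta chain of all 344 two-beta barcodes and was missing for the weaker chain in 2. Of 7783 called barcode sequences, 41 were called in at least 2 libraries, and 4 two-beta barcodes were among them. In 1 of these 4 a beta chain was shared with the other library. Without those barcodes the 8 measures and 5 TRBV entries compared below kept their direction.

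The beta pair seen most often was found in 15 barcodes of female lucOS sgp53 replicate 2. Some chains carry the joined name TRBV12-2+TRBV13-2 in the files, without an explanation. It was taken here as a V segment that was not resolved and was kept as its own entry. The pair joined such a chain with a TRBV5 chain. Their CDR3 sequences are shown with capitals from the first base at which the chains differ, and the 5 pairs that follow it in number of barcodes are shown the same way.
TRBV12-2+TRBV13-2 TRBJ2-7: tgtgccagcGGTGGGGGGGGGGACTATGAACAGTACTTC
TRBV5 TRBJ2-5: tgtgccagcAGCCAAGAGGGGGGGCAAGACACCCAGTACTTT
A second pair of this library was found in 6 barcodes.
TRBV12-2+TRBV13-2 TRBJ2-7: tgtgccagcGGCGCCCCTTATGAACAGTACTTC
TRBV26 TRBJ2-5: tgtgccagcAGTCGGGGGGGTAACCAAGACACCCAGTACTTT
Another pair was in 4 barcodes of female lucOS NICD replicate 1, and here and in the next lines the shared end is in lower case too.
TRBV13-1 TRBJ2-1: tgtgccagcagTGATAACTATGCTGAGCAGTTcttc
TRBV5 TRBJ2-7: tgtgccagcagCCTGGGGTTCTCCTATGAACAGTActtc
Male lucOS NICD replicate 1 held a pair of TRBV13-1 and TRBV19 in 4 barcodes.
TRBV13-1 TRBJ2-1: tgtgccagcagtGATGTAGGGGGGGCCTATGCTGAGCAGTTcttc
TRBV19 TRBJ1-2: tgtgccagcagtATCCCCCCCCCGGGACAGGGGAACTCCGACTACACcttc
The same male library held a pair of TRBV15 and TRBV10 in 4 barcodes.
TRBV15 TRBJ1-1: tgCCCAGCTGCAAACACAGAAGTCTTcttt
TRBV10 TRBJ2-5: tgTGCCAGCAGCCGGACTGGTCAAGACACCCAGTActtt
Female luc sgp53 replicate 2 held a pair of TRBV15 and TRBV29 in 2 barcodes.
TRBV15 TRBJ1-2: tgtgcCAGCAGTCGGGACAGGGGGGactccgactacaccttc
TRBV29 TRBJ1-2: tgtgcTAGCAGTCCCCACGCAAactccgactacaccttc

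These segments lie in the beta locus (Tcrb) at chr6:40891296-41558371 of GRCm38.p6, the mouse build that RefSeq's table gives and that the submitters name as mm10. RefSeq annotates Trbv5 at chr6:41062359-41062803, Trbv13-2 at chr6:41121396-41121832 and Trbv26 at chr6:41227525-41227913 as V segments. It lists Trbv10 and Trbv29 as V segment pseudogenes, although the contigs that use them here are marked productive.

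In all, 13 beta pairs were found in at least 2 barcodes of 1 animal, and they were spread over 9 animals. They account for 49 of the 344 two-beta barcodes, which is 14.2% (95% Wilson interval 10.9% to 18.3%). The interval takes barcodes as independent, which barcodes of 1 pair are not, so it is too narrow. In 12 of the 13 pairs, all barcodes of the pair also shared an identical alpha chain. In 11 of them the full set of alpha chains was the same in each barcode. No pair was found in more than 1 animal. The 49 barcodes include 21 of female lucOS sgp53 replicate 2, and without that library 28 of 312 barcodes, or 8.97%, were in repeated pairs. By group, repeated pairs held 25 of 135 two-beta barcodes in lucOS sgp53 females, 12 of 68 in lucOS NICD males and 6 of 37 in lucOS NICD females. They held 6 of 94 in luc sgp53 females and 0 of 10 in luc NICD females. These counts were not tested, since a single clone sets most of the lucOS sgp53 count.

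The pair of TRBV12-2+TRBV13-2 and TRBV5 behaved as a unit. All 15 barcodes had a single alpha chain, TRAV14D-2 with TRAJ6, with the CDR3 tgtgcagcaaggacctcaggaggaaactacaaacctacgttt. The first beta chain had 4 to 22 UMIs per barcode with a median of 9, and the TRBV5 chain had 4 to 20 with a median of 8. The first chain had more UMIs in 9 of the 15 barcodes, so neither chain was the weaker one throughout. The TRBV5 chain was never the sole beta chain of a barcode in this animal, and the TRBV12-2+TRBV13-2 chain was so in 1 barcode, which had no alpha contig. Another 2 barcodes with this pair were not called cells.

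The alpha chain of that pair was also found with other beta chains. It was the alpha chain of 20 one-beta barcodes of the same library and of 20 one-beta barcodes of male lucOS NICD replicate 1, an animal of another group. In all 40 the sole beta chain used TRBV13-2, or the joined name, with TRBJ2-7, as the first chain of the pair does. The CDR3 of these chains is as long as that of the first chain, and the capitals mark the 4 positions at which the sequences vary.
Pair of female lucOS sgp53 replicate 2: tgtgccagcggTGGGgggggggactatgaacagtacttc
Sole beta chain, female lucOS sgp53 replicate 2: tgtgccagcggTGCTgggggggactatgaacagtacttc
Sole beta chain, male lucOS NICD replicate 1: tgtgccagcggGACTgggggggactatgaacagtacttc
The sole chain of the same library differs from the chain of the pair at 2 bases, and that of the male library differs from it at 4. In the male library 19 of the 20 barcodes also had a second productive alpha chain, and in the female library 0 of 20 did. Among the 12 pairs with a shared alpha chain, this was the only one whose alpha chain was found in one-beta barcodes of another animal.

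The other repeated pairs were mostly found together as well. The TRBV12-2+TRBV13-2 and TRBV26 pair had 1 alpha chain, TRAV4D-3 with TRAJ17, in all 6 barcodes. Its first chain had 3 to 23 UMIs with a median of 11, its TRBV26 chain had 3 to 8 with a median of 6, and neither chain was the sole beta chain of any barcode of the animal. In the TRBV13-1 and TRBV5 pair the TRBV13-1 chain had 6, 27, 34 and 29 UMIs in its 4 barcodes, and the TRBV5 chain had 2, 11, 18 and 8. All 4 carried TRAV3D-3 with TRAJ32.

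In male lucOS NICD replicate 1 the TRBV13-1 chain had 10, 13, 16 and 10 UMIs and the TRBV19 chain of the same barcodes had 6, 15, 7 and 6, with TRAV14N-3 and TRAJ4 as the alpha chain. The other pair of that library was uneven: TRBV15 had 38, 23, 19 and 45 UMIs, and TRBV10 had 5, 6, 4 and 9. Its TRBV15 chain was the sole beta chain of 2 further barcodes, both with the same TRAV10 and TRAJ2 alpha chain. The TRBV15 and TRBV29 pair of female luc sgp53 replicate 2 had 28 and 44 UMIs for TRBV15 and 5 and 27 for TRBV29, with TRAV7-5 and TRAJ13 in both barcodes. In 8 of the 13 pairs neither chain was the sole beta chain of any barcode of the animal.

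**Figure D1:**
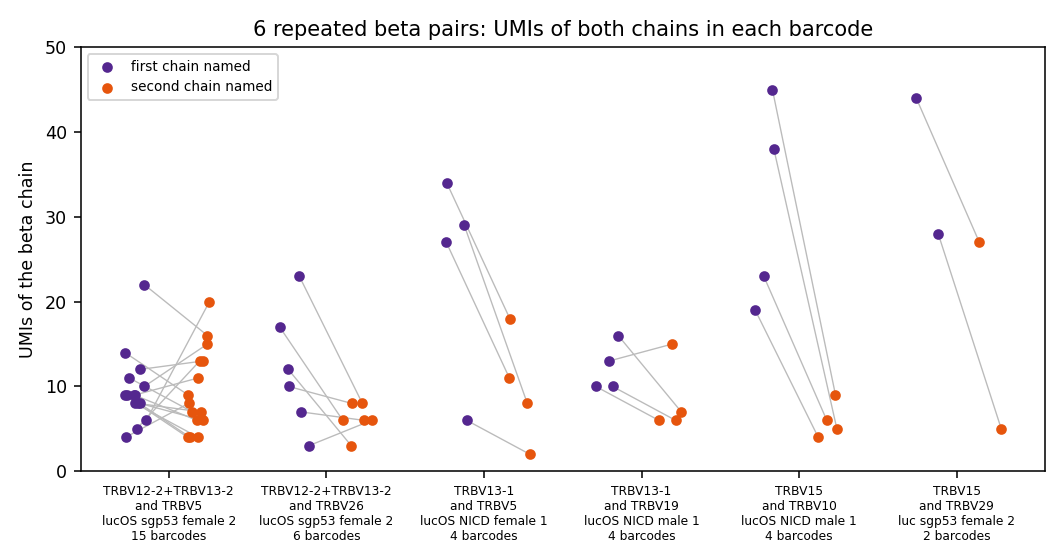
UMIs of the first and second named beta chain (y axis) in each barcode of the 6 repeated pairs with the most barcodes (x axis), with a grey line joining the chains of 1 barcode. In the pair of 15 barcodes the chains overlap between 4 and 22 UMIs, and in the TRBV15 and TRBV10 pair every TRBV15 value, 19 or more, lies above every TRBV10 value, 9 or less.

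1 repeated pair joined 2 clones that were each present on their own. In male lucOS NICD replicate 2, a TRBV3 chain and a TRBV12-2 chain met in 2 barcodes, and each barcode held 2 alpha chains. Capitals mark the bases between the shared start and the shared end.
TRBV3 TRBJ2-5: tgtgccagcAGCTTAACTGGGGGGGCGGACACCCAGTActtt
TRBV12-2 TRBJ1-1: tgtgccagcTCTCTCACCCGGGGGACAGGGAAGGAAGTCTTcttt
The TRBV3 chain was the sole beta chain of 10 other barcodes, 9 of them with TRAV4D-4 and TRAJ33. The TRBV12-2 chain was the sole beta chain of 6 others, all with TRAV13-1 and TRAJ7. Both of these alpha chains were present in both two-beta barcodes, whose beta chains had 18 and 2 UMIs (TRBV3) and 12 and 9 UMIs (TRBV12-2). This was the only one of the 13 pairs in which both chains were found alone in other barcodes.

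The other 6 pairs were each found in 2 barcodes. A pair of TRBV3 and TRBV20 was in 2 barcodes of female lucOS sgp53 replicate 1 with a different alpha chain in each. It was the only repeated pair without a shared alpha chain. A pair of TRBV20 and TRBV5 in male lucOS NICD replicate 1 had TRAV6-7-DV9 with TRAJ49 in both barcodes, while the TRBV5 chain was the sole beta chain of 6 other barcodes that did not carry this alpha chain. A pair of TRBV12-2 and TRBV20 was found once in each of the paired tumours of the lucOS sgp53 animal, replicates 3 and 4, with the same alpha chain, TRAV12D-3 with TRAJ28, in both. A pair of TRBV13-1 and TRBV1 in female lucOS NICD replicate 1 had the same 2 alpha chains in both barcodes, and the TRBV13-1 chain had 17 and 16 UMIs against 8 and 7 for TRBV1. A pair of TRBV29 and TRBV3 in female luc sgp53 replicate 1 shared TRAV13-1 with TRAJ28, and 1 of its barcodes had a second alpha chain. A pair of TRBV13-3 and TRBV12-2+TRBV13-2 in female luc sgp53 replicate 3 had a single shared alpha chain, TRAV9D-3 with TRAJ7.

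Large clones were seldom joined in called two-beta barcodes. Both chains were the sole beta chain of another barcode of the library in 15 of 344 barcodes, or 4.36% (2.66% to 7.07%). Both chains were so in at least 5 other barcodes each in 3 of 344, or 0.872% (0.297% to 2.53%), and 2 of these 3 are the TRBV3 and TRBV12-2 barcodes above. The other 1 of the 3 held a single alpha chain. The largest clone of a library, which had up to 127 one-beta barcodes, supplied the stronger chain of 2 called two-beta barcodes and the weaker chain of 1, while 8.41% of one-beta barcodes belonged to it. Among 167 barcodes with 2 beta chains that are not marked as cells, it supplied the stronger chain of 10 and the weaker chain of 9. The cell calls therefore limit this count.

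Chains of called two-beta barcodes came from clones seen elsewhere less often than those of one-beta barcodes. A chain was counted here when it was the sole beta chain of another barcode of the library. Over the 12 animals with at least 5 two-beta barcodes, the share ran from 0% to 44.4% with a median of 18.5% for the chain with more UMIs, and from 11.6% to 67.8% with a median of 39.6% for one-beta barcodes. The difference was -16.8 ± 12.4 percentage points (SD, n = 12 animals), lower in 11 of 12 animals (two-sided exact sign-flip permutation test, adjusted p = 0.00391 over 8 measures). For the chain with fewer UMIs the share ran from 0% to 59.3% with a median of 10.1%, and the difference from one-beta barcodes was -21.7 ± 16.9 points (lower in 11 of 12 animals, exact test, adjusted p = 0.00684). The exception was male lucOS NICD replicate 2, the highest at 59.3%. The weaker chain did not differ from the stronger beyond the spread between animals (-4.90 ± 13.9 points, exact test, adjusted p = 0.273). A clone whose cells all show both chains adds to none of these counts, and without the repeated pairs the differences were -18.7 and -21.3 points. The cell calls limit this comparison too. Of 167 barcodes with 2 beta chains that are not marked as cells, the stronger chain came from such a clone in 105 (62.9%) and the weaker in 85 (50.9%), against 69 (20.1%) and 58 (16.9%) of the 344 called ones and 40.9% of one-beta barcodes. With these 167 included, the differences in the same 12 animals were -8.14 points for the stronger chain (exact test, unadjusted p = 0.00146) and -14.0 for the weaker (unadjusted p = 0.00635).

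A second alpha chain was more frequent in two-beta than in one-beta barcodes. The share with 2 productive alpha chains ran from 0% to 48.1% over 12 animals with a median of 24.5%, against 3.41% to 15.1% with a median of 6.50% in one-beta barcodes. The difference was 19.2 ± 12.6 points (SD, n = 12), higher in 11 of 12 animals (exact sign-flip test, adjusted p = 0.00391). The exception was female lucOS sgp53 replicate 2, where 0 of 32 two-beta barcodes had a second alpha chain. The limit of 9.38% for this count of 0 takes barcodes as independent, though 21 of the 32 were in repeated pairs, so a larger share is possible. In the animal with paired tumours, replicate 3 had 23.8% against 17.5% in one-beta barcodes and replicate 4 had 7.69% against 12.7%, the opposite direction. Pooled over libraries, 92 of 344 two-beta barcodes (26.7%, 22.3% to 31.7%) and 557 of 7261 one-beta barcodes (7.67%) had 2.

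The cell calls limit the count of alpha chains. No called two-beta barcode lacked an alpha chain, while 1556 of 7261 one-beta barcodes did, and no called barcode held more than 2 productive alpha chains. The rule behind the calls is not given in the sources used here, so the difference in barcodes without an alpha chain (-23.0 ± 5.29 points, exact test, adjusted p = 0.00391) cannot be told apart from that rule. Of the 167 uncalled two-beta barcodes 48 lacked an alpha chain, and with all uncalled barcodes included the difference was -13.9 points. The difference in barcodes with 2 alpha chains was then 21.0 points (exact test, unadjusted p = 0.000488). Among barcodes with at least 1 alpha chain the difference in those with 2 was 17.4 points (exact test, unadjusted p = 0.00195), with pooled shares of 26.7% and 9.76%.

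Counting unproductive alpha rearrangements as well, 37 of 344 two-beta barcodes had at least 3, more than the 2 alleles of a diploid cell usually leave, against 24 of 7261 one-beta barcodes. Per animal the share was 0% to 23.1% with a median of 9.42% in two-beta barcodes and 0% to 0.825% with a median of 0.248% in one-beta barcodes. The difference was 8.96 ± 8.07 points, higher in 8 and lower in 1 of 12 animals (exact test, adjusted p = 0.0104). At least 3 beta rearrangements were found in 21 two-beta barcodes (6.10%) and 6 one-beta barcodes (0.0826%). The choice of barcodes favours this difference, since all 344 two-beta barcodes had at least 2 beta rearrangements by the rule. Of one-beta barcodes, 565 of 7261 (7.78%) had at least 2, which is 1 beyond the productive chain. All 37 and all 21 were barcodes whose pair was seen once: of the 49 barcodes of repeated pairs, 0 had 3 or more alpha or beta rearrangements. The limit of 6.12% for this count of 0 takes barcodes as independent, though the 49 come from only 13 pairs, so a larger share is possible. A second productive alpha chain was present in 5 of those 49 barcodes (10.2%) and in 87 of the other 295 (29.5%). Barcodes of a repeated pair are not independent of each other, so no test was made over these 49.

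**Figure D2:**
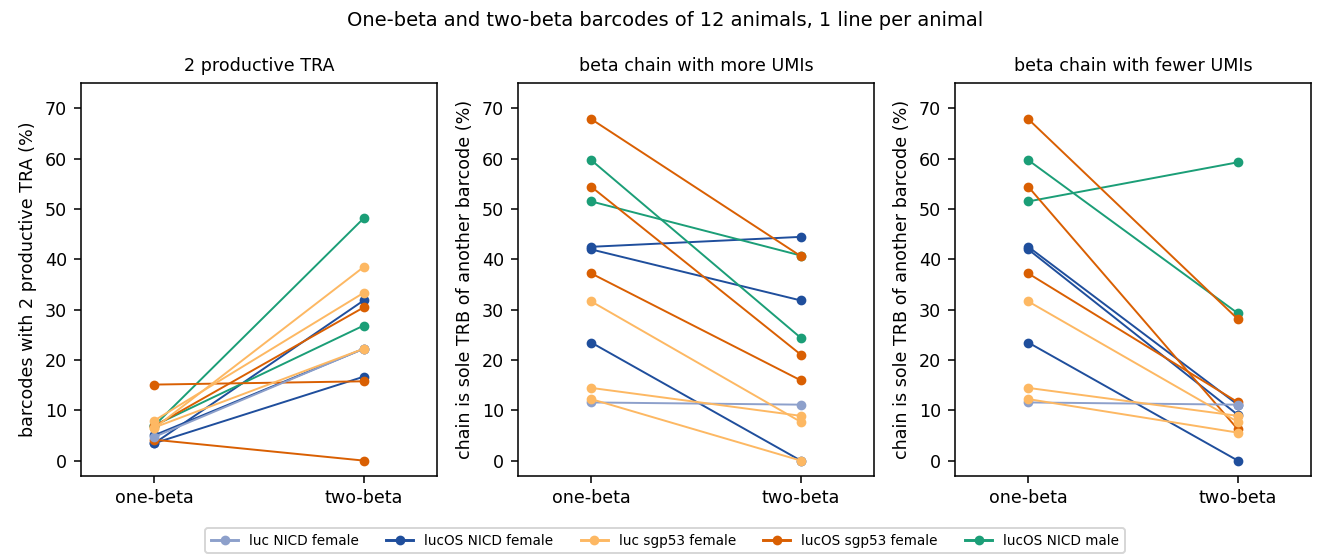
Each line joins the value of one-beta and two-beta barcodes of 1 of 12 animals (y axes in percent): barcodes with 2 productive TRA, and beta chains that are the sole TRB of another barcode, for the two-beta chain with more or with fewer UMIs. The second alpha chain was more frequent in two-beta barcodes in 11 of 12 animals, and the chains were less frequently found elsewhere in 11 of 12.

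For 10 two-beta barcodes the alpha partner of both beta chains was known from one-beta barcodes of the library. The alpha chains of both were present in 5 of them, that of 1 in the other 5. For another 73 barcodes the partner of 1 beta chain was known, and it was present in 47 and absent in 26. Of these 47 barcodes, 25 had 2 alpha chains and 22 had a single one. For 261 barcodes neither partner was known.

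Both beta chains were usually well supported. The stronger chain had a median of 13 UMIs (quartiles 8 and 18.2) and the weaker a median of 7 (quartiles 4 and 10). The weaker chain had 1 UMI in 6 barcodes, at most 2 in 34 and at least 10 in 95 of 344, and requiring at least 2 or 3 UMIs left the direction of the 8 measures, the 5 TRBV entries and the group comparisons as it was. The weaker chain had at least 0.5 of the UMIs of the stronger one in 217 barcodes (63.1%), and the median ratio was 0.571. In one-beta barcodes with 2 alpha chains the median ratio of the second to the first alpha chain was 0.636. Reads per UMI had a median of 883 for the stronger and 903 for the weaker chain.

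The stronger chain also had more UMIs than the sole chain of one-beta barcodes. The median per animal averaged 13.0 ± 3.66 UMIs in two-beta and 9.38 ± 1.94 in one-beta barcodes (SD, n = 12), a log2 ratio of 0.45 ± 0.47 (higher in 8 and lower in 2 of 12 animals, exact test, adjusted p = 0.0104). As the larger of 2 values it is expected to be the higher one. The summed UMIs of all productive alpha chains, which the choice did not use, averaged 5.50 ± 1.43 against 4.67 ± 0.985, a log2 ratio of 0.22 ± 0.32 (higher in 7 and lower in 2 of 12 animals, exact test, adjusted p = 0.0446). A second alpha chain adds to this sum, so the measure is not separate from the count of alpha chains. The alpha difference was no longer past 0.05 among barcodes whose strongest beta chain had at least 10 UMIs (log2 ratio 0.064, exact test, unadjusted p = 0.625), among females only (0.16, unadjusted p = 0.156) or when any 1 of 7 animals was left out (0.16 to 0.22, unadjusted p of 0.0625 to 0.0781).

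**Figure D3:**
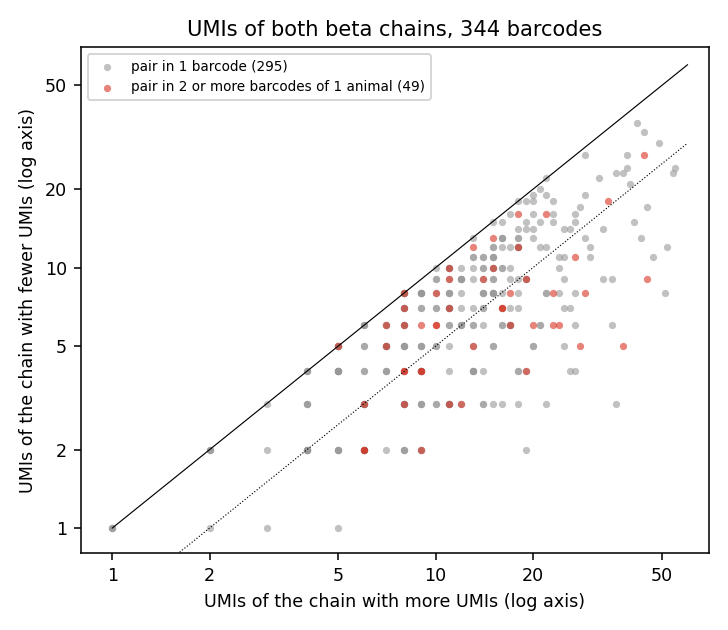
UMIs of the weaker beta chain (y axis) against the stronger one (x axis), both on log axes, for 344 barcodes, with barcodes of repeated pairs in red. The solid line marks equal UMIs and the dotted line a ratio of 0.5, and 217 barcodes lie on or above the dotted line.

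Chains of 1 barcode whose CDR3 sequences had the same length were not near-identical. In 45 of 344 barcodes both CDR3 sequences had the same length, and those differed at 5 bases or more, with a median of 20. Chains of unequal length were not compared base by base. In 13 barcodes (3.78%) both chains used the same TRBV segment, and in 3 both TRBV and TRBJ. Both chains used TRBJ2 segments in 157 barcodes, 1 used TRBJ1 and the other TRBJ2 in 155, and both used TRBJ1 in 32. TRBJ2 made up 68.2% of the 688 chains of two-beta barcodes and 72.1% of one-beta chains. A chain of a two-beta barcode was found in another animal in 9 of 688 cases (1.31%), against 4.41% of one-beta barcodes. The invariant alpha chain of natural killer T cells, TRAV11 with TRAJ18, was present in 10 of 344 two-beta barcodes (2.91%) and in 2.16% of the one-beta barcodes with an alpha chain. None of these 10 was in a repeated pair.

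TRBV use differed in 1 of the 20 TRBV entries tested, a background of 5%. TRBV13-3 made up 3.71 ± 2.64% of the chains of two-beta barcodes and 7.91 ± 2.77% of those of one-beta barcodes (SD, n = 12 animals), a difference of -4.20 ± 3.18 points, lower in 11 of 12 animals (exact sign-flip test, adjusted p = 0.0391). Without the repeated pairs the difference was -3.88 points (adjusted p = 0.0781, exact test), and among barcodes with an alpha chain it was -3.20 (adjusted p = 0.111, exact test). The call was also lost when any 1 of 9 animals was left out, while the difference stayed between -4.83 and -3.69 over all animals left out in turn. The most used entry, TRBV12-2+TRBV13-2, averaged 12.4 ± 9.49% in two-beta and 18.0 ± 9.72% in one-beta barcodes (adjusted p = 0.490, exact test). By the same exact test, TRBV3 averaged 7.06% and 7.97% (adjusted p = 0.819), TRBV19 averaged 5.78% and 6.44% (adjusted p = 0.791), and TRBV13-1 averaged 7.22% and 6.26% (adjusted p = 0.819). None of these 4 passed the test, and TRBV20, TRBV15 and TRBV26, each higher in 10 of 12 animals by 2.74, 2.87 and 2.29 points, had adjusted p of 0.137, 0.137 and 0.166.

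The share of two-beta barcodes among T cells lay between 0% and 7.51% per library. In luc NICD females the shares were 3.15%, 1.30% and 0%, from 9 of 286, 1 of 77 and 0 of 49 T cells. A count of 0 in 49 allows a share of up to 6.12%. In lucOS NICD females they were 5.09%, 3.97% and 3.36%, and all 3 lay above the luc NICD values. In luc sgp53 females they were 3.23%, 7.51% and 5.21%. In lucOS sgp53 females they were 5.38% and 3.86%, and 2.97% and 2.02% in the paired tumours of 1 animal, and they overlapped the luc sgp53 values. The lucOS NICD males had 7.36% and 4.27%.

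**Figure D4:**
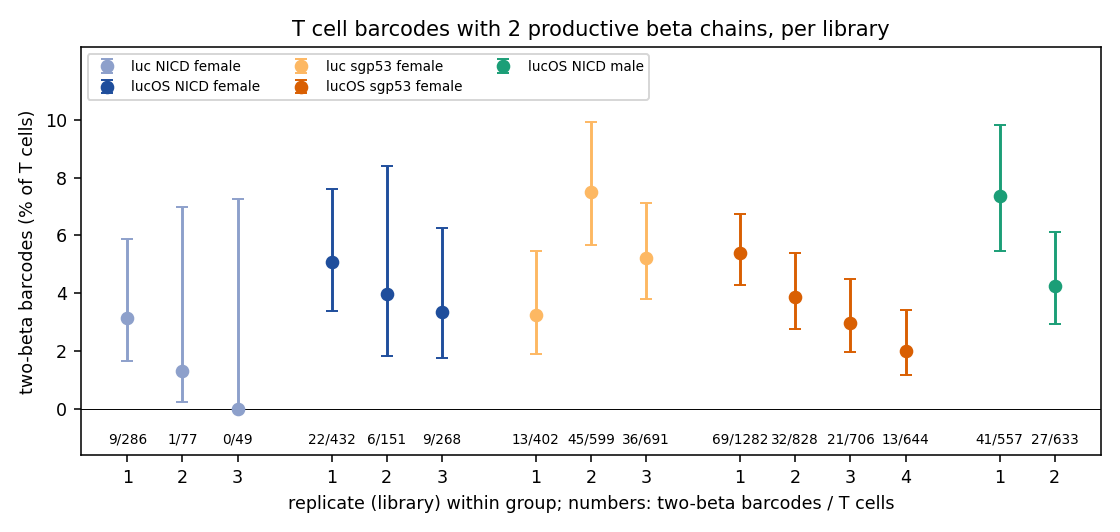
Share of T cell barcodes with 2 productive beta chains (y axis, percent) in each library, grouped by construct, driver and sex, with 95% Wilson intervals and the counts below the points. The intervals of the small luc NICD libraries reach from 0% to 7.27% and overlap those of all other libraries.

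No comparison of groups passed the test. The share was 0.628 points higher in lucOS than in luc (two-sided exact permutation test within drivers over 12 female animals, p = 0.580, adjusted p = 0.580). It was 1.80 points lower in NICD than in sgp53, a difference of -1.80 (exact test, p = 0.145, adjusted p = 0.217). The lucOS difference was 2.66 points within NICD and -1.40 within sgp53, and the difference between these of 4.06 points had p = 0.0550 (exact test, adjusted p = 0.110). The unadjusted p of that difference lay below 0.05 under 5 other settings, at the lowest 0.0243 with the paired tumours counted apart. The males averaged 5.81% against 4.14% in females of the same genotype (exact test, p = 0.300), where 2 against 3 animals cannot reach a p below 0.100.

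A droplet run that captures more cells also captures more pairs of cells, and the share was set against the number of T cells recovered. The part of such pairs in the shares was not tested. Over the 14 animals Pearson's r was 0.545 (permutation p = 0.0441) and Spearman's rho 0.569 (permutation p = 0.0367), and neither held over the family of 6 tests (adjusted p = 0.110 for both). Without the 2 animals farthest from the median T cell number r was 0.438 (permutation p = 0.155, n = 12). Among the 12 females r was 0.585 (permutation p = 0.0474) and rho 0.636 (permutation p = 0.0295). Within the 6 NICD females r was 0.854 (permutation p = 0.0322) and rho 0.771 (permutation p = 0.103), and within the 6 sgp53 females r was 0.192 (permutation p = 0.723) and rho 0.257 (permutation p = 0.658). The relation did not hold within the sgp53 females. Leaving out the repeated pairs gave r = 0.462 (permutation p = 0.0949).

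**Figure D5:**
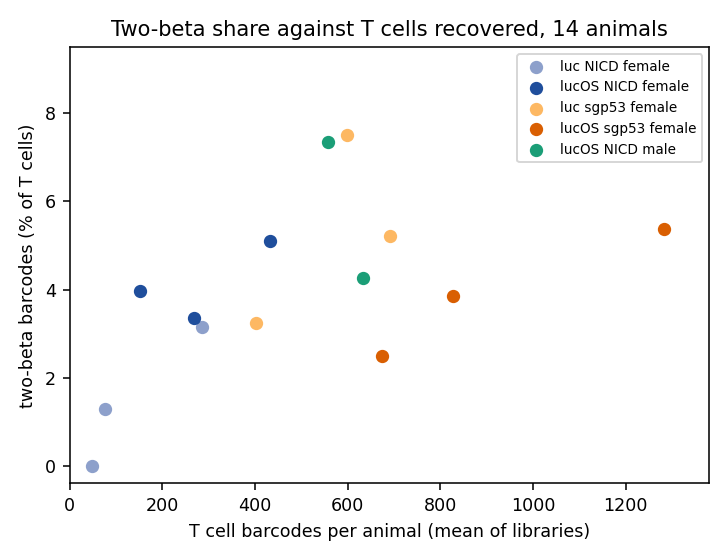
Two-beta share (y axis, percent) against the number of T cell barcodes (x axis) for 14 animals, coloured by group. The 2 luc NICD animals with 49 and 77 T cells had the lowest shares, 0% and 1.30%, and the animal with the most T cells, 1282, had 5.38%.

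Just outside the rule lay 167 barcodes with 2 productive, high-confidence beta chains that the deposited tables do not mark as cells. Pooled over libraries, they drew on large clones more often by count than called two-beta barcodes did. The contrast was not made within libraries, and 39 of the 167 came from male lucOS NICD replicate 1 and 28 from female lucOS sgp53 replicate 2. At least 1 chain was the sole beta chain of 5 or more called one-beta barcodes of the library in 125 of 167 (74.9%, 67.8% to 80.8%), against 32 of 344 called two-beta barcodes (9.30%, 6.67% to 12.8%). For one-beta barcodes, 2021 of 7261 (27.8%) had a chain that was the sole beta chain of 5 or more others. Both chains came from clones of that size in 31 of 167 (18.6%) uncalled and 3 of 344 (0.872%) called two-beta barcodes. Of the 31, 10 came from female lucOS sgp53 replicate 2 and 21 from 6 other libraries, all with lucOS. The luc libraries held 0 to 8 uncalled two-beta barcodes each and the lucOS libraries 3 to 39, so few luc barcodes could enter this count. The largest clones of the luc NICD libraries had 4, 1 and 7 one-beta barcodes, and those of the luc sgp53 libraries had 31, 14 and 24. The luc sgp53 libraries held 7, 3 and 8 uncalled two-beta barcodes, and in 0 of these did both chains come from clones of 5 or more. Among the 167, 62 held 1 alpha chain and 57 held 2. In the 54 whose alpha partners were known for both chains, the alpha chains of both were present in 21. Their stronger chain had a median of 14 UMIs and their weaker chain 6, against 13 and 7 in the called set. In both sets combined, 34 of 511 barcodes (6.65%) had both chains from clones of that size. No test was made between the called and uncalled sets.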

How the data were processed

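The series holds 56 samples, and values were used from the 15 TCR libraries of 14 animals. For each library the authors deposited a table of receptor contigs with counts of UMIs and reads per contig. The submitters' processing notes name Cell Ranger and Seurat and the build mm10, without versions or roles. Barcodes marked as cells in the deposited table and holding a productive, high-confidence TRB contig were taken as T cells. Chains with the same V gene, J gene and CDR3 nucleotides were taken as 1 clonotype. Groups came from the genotype and sex labels and animals from the titles.

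Two-beta and one-beta barcodes were compared within each library, and the differences of 12 animals with at least 5 two-beta barcodes entered two-sided exact sign-flip permutation tests, adjusted by Benjamini-Hochberg over 8 measures or over the 20 TRBV entries whose share in one-beta barcodes averaged 1% or more. Group tests permuted animals within strata, and correlations used 100000 permutations. These 6 tests were adjusted together. Only the TRBV step was tested on simulated barcodes, whose chains were drawn independently, without repeated pairs. The exact tests and the choice of barcodes were checked on small made examples. Intervals on shares are 95% Wilson intervals, and limits for a count of 0 use 3 counts. Both cover counting error only and take barcodes as independent, which barcodes of 1 clone are not. The depth is the number of T cells, 49 to 1282 per library. Nothing says that cultures or preparations were repeated, so p-values measure the spread between animals.

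Named were the 6 repeated pairs with the most barcodes, the 3 barcodes whose less frequent chain was the sole beta chain of the most others (1 of which is not reported here), the TRBV entries past the threshold and the 5 most used. The other repeated pairs, TRBV20, TRBV15 and TRBV26 were added after their values had been seen. The members, definitions and tests were chosen with earlier results of these data known. Computations ran in Python 3.11.15 with scipy 1.17.1, pandas 2.3.3 and numpy 2.4.6. The 33 TRBV and TRBJ names all matched RefSeq symbols of GRCm38.p6. The gene expression and bulk libraries were not used here.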

Additional observations from a re-analysis of the deposited data

Results flagged for a closer look

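The 167 barcodes with 2 productive, high-confidence beta chains that are not marked as cells stood out, because they lie outside the comparisons made on called barcodes. They numbered 0 to 39 per library, with the 39 in male lucOS NICD replicate 1. At least 1 chain from a clone of 5 or more other barcodes was present in 74.9% of them and in 9.30% of the called two-beta barcodes. The share in one-beta barcodes was 27.8%. No library's two-beta share or difference in the lucOS sgp53 group, the one with 4 libraries, lay apart from the others by Dixon's test, which flags about 1 group in 20 by chance.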

How the results depend on the processing

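Each result was recomputed under the alternative settings. A call was judged by the unadjusted p, except for TRBV entries, which were judged by the p adjusted over the entries tested. Of 527 recomputed values, 461 kept their direction and their side of the threshold, or for counts stayed within 1.5 times. Some of these could not change. Counting chains within 2 bases of each other once altered nothing, since chains of the same length differed at 5 bases or more. Leaving out an animal that a test did not use altered nothing either. Results that did not pass in the main setting are counted as well. The higher share with 2 alpha chains or 3 alpha rearrangements kept its direction and its side of the threshold in every setting run. So did the lower share of chains from clones seen elsewhere, at -7.74 and -13.6 points with all uncalled barcodes included. The number of repeated pairs ran from 10 to 13 when animals were left out in turn.

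The difference of the lucOS effect between drivers passed 0.05 with 2 or more UMIs per chain (4.26 points), 3 or more (4.60), separate paired tumours (4.42), barcodes with an alpha chain (5.54) and without repeated pairs (4.19). Left-out animals gave 2.97 to 5.11, past 0.05 without female lucOS sgp53 replicate 1, luc NICD replicate 1 or luc sgp53 replicate 1. Pearson's r of share and T cells missed 0.05 with 2 or more UMIs (0.509), separate paired tumours (0.503), an alpha chain (0.490) and without repeated pairs (0.462). Left-out animals gave 0.431 to 0.599, missing it without lucOS NICD female 3 or male 2, any luc NICD female, or luc sgp53 female 1 or 3.

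The log2 ratio of alpha UMIs missed 0.05 without barcodes called in several libraries (0.19), in animals with at least 10 two-beta barcodes (0.27), with a strongest chain of at least 10 UMIs (0.064) and in females (0.16). Left-out animals gave 0.16 to 0.27, missing it without lucOS NICD female 1 or 2, male 1 or 2, lucOS sgp53 female 1, or luc sgp53 female 2 or 3. With a strongest chain of at least 10 UMIs the log2 ratio of the strongest beta chain reversed to -0.023.

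The count of TRBV entries called was 0 in animals with at least 10 two-beta barcodes, with a strongest chain of at least 10 UMIs, in females, with an alpha chain and without repeated pairs, where 3 to 6 entries had an unadjusted p under 0.05 by the exact test. It was 0 to 2 with animals left out, and 0 without any 1 of lucOS NICD female 1 or 3, male 1 or 2, lucOS sgp53 female 1 or 2, or luc sgp53 female 1, 2 or 3, with 3 to 5 at an unadjusted p under 0.05. Among entries that did not pass the test, TRBV3 turned to 0.18 points in animals with at least 10 two-beta barcodes and TRBV19 to 1.62 with a strongest chain of at least 10 UMIs. TRBV13-1 ran from -0.28 to 1.72 over left-out animals and was below 0 without lucOS NICD female 1, with uncalled two-beta barcodes included (-0.070) and with all uncalled barcodes included (-0.32). The cause of these changes was not tested. The settings that kept barcodes with an alpha chain only, left out repeated pairs or included uncalled barcodes were chosen after seeing the data. Between groups no paired analysis was possible because the labels give no shared replicate numbers.

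Intervals on the shares were widest in the libraries with the fewest T cells, 49, 77 and 151, and the deposited cell calls limit every count of chains per barcode.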
